A study of Homo sapiens with 8 samples.

Results

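A549 is an established cell line from a human lung adenocarcinoma, with mutant KEAP1 and a deleted CDKN2A locus. Described here are the 2 reference states of a study of resistance to TP-0903, an inhibitor of the receptor tyrosine kinase AXL: A549 cultures carrying a control short hairpin RNA (control shRNA, libraries P15 and P3) and plain A549 control cultures (control, libraries P17 and P4). They were chosen by their titles and make up 4 of the 8 RNA sequencing libraries. The other groups are AXL shRNA (P15 and P3) and TP-0903 at 40 nM (P17 and P4), with 2 libraries each. All 8 came from A549 cells grown in F12K medium with serum, and no other allele or agent is named for the control cultures. The labels give neither the meaning of the P number, nor the hairpin's sequence and vector, nor whether the hairpin cells were a pool or a clone, nor whether the control cultures received the drug's solvent. The hairpin groups share no P number with the groups that have no hairpin, so the vector, its selection and the state of the culture cannot be told apart in any value below.

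Dividing cells switch on their cell cycle genes in order. E2F factors release the genes of DNA replication as a cell leaves G1, and the MuvB complex with B-MYB and FOXM1 then activates the genes of mitosis, while the DREAM complex and RB hold both groups down in resting cells. Cholesterol and fatty acid enzymes are under SREBP factors, which are active when membranes are short of sterol. ATF4 drives the integrated stress response when amino acids are scarce or protein folding is disturbed.

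Expression is given as CPM, RSEM expected counts per 1000000 counts of the library, after scaling by trimmed mean of M values. A difference is a log2 fold change, control shRNA minus control, with its standard error (SE) and a Benjamini-Hochberg adjusted p from the edgeR quasi-likelihood test, two-sided, with a threshold of 0.05. Values in pairs stand in the order P15 and P3 for control shRNA, and P17 and P4 for control. The control shRNA libraries held 30067011 and 31925904 expected counts, and the control libraries 36258608 and 38908570. The Pearson correlation of log2 CPM across genes was 0.989 within control shRNA, 0.991 within control and 0.966 to 0.982 between the groups. The labels call the libraries biological replicates without saying how they were separated, so a p-value measures the spread between these libraries. That spread was estimated over all 8 libraries, AXL shRNA and TP-0903 included. It also holds the difference between the high and low P number of each group.

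Of 17676 tested genes, 1618 (9.15%) differed between control shRNA and control. Of these, 541 (3.06% of genes tested) were higher and 1077 (6.09%) were lower in the control shRNA cultures. The median over all tested genes was 0.02, and 762 of the changed genes differed by over 2-fold (241 higher and 521 lower). Both control shRNA libraries were above both control libraries for 28.7% of genes and below both for 28.4%. The spread within groups, pooled over all 8 libraries, was a coefficient of biological variation of 21.5%. The number of changed genes was 441 without control shRNA P15, 591 without control shRNA P3, 343 without control P17 and 1010 without control P4. Where 4 counts follow a list below as counts with 1 library left out, they leave out these 4 libraries in this order.

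**Figure D1:**
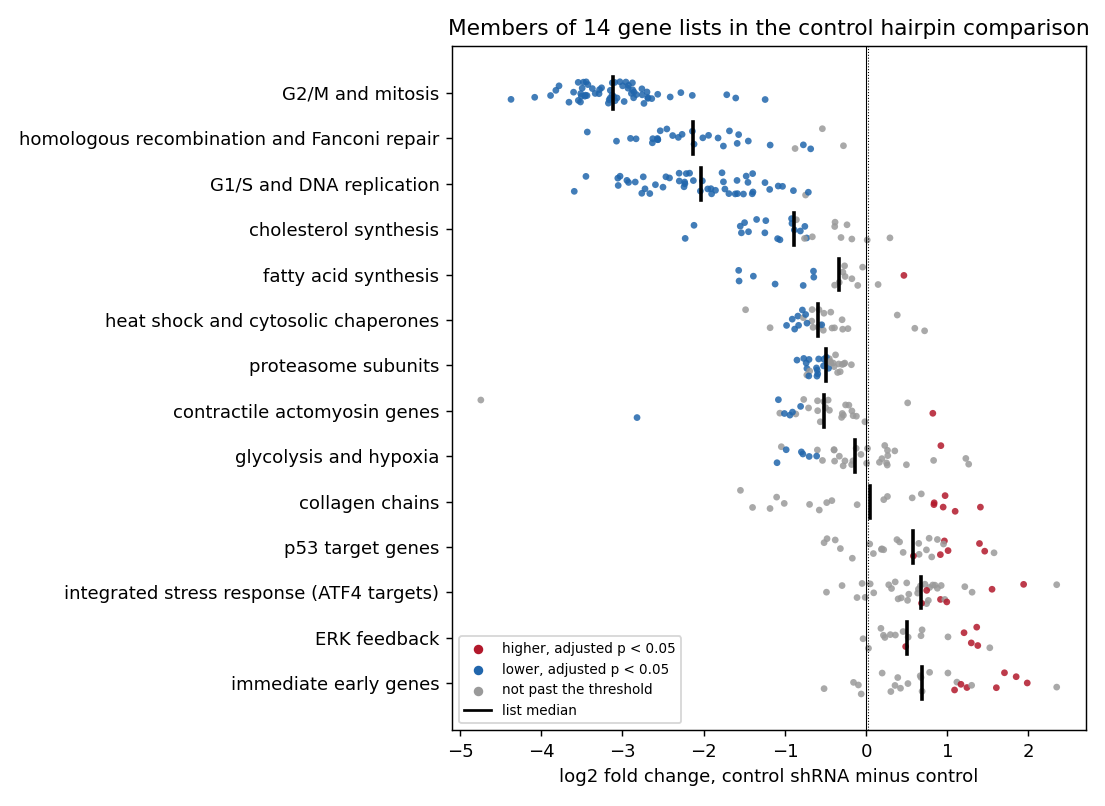
Log2 fold change, control shRNA minus control (x axis), of the tested members of 14 gene lists; each point is a gene, red and blue mark members past the threshold, grey marks the rest, and black bars are list medians. All G2/M members are blue, between -4.37 and -1.24, and the lipid synthesis lists lie mostly below 0. Red points are mostly in the stress response, immediate early, ERK feedback, p53 and collagen lists.

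AXL, the receptor that the study targets, checks the labels of the hairpin groups. It stood at 85.1 and 139.5 CPM in control shRNA, 216 and 105 CPM in control, 55.4 and 63 CPM in AXL shRNA (P15 and P3) and 279.6 and 153 CPM in TP-0903 (P17 and P4). Both AXL shRNA libraries were the lowest of the 8. Between control shRNA and control the values overlapped, and AXL did not pass the test (log2 fold change -0.51, SE 0.41, adjusted p = 0.465). The log2 ratio was -1.34 for P15 over P17 and 0.41 for P3 over P4, and an edgeR test of the difference between P levels, which takes both hairpin groups together against both groups without a hairpin, gave -1.41 (adjusted p = 0.0177). The other TAM receptors and their ligands (TYRO3, MERTK, GAS6 and PROS1) did not pass either.

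The 2 references differed most in their cell cycle genes. All 60 tested genes of the G2/M and mitosis list fell in the control shRNA cultures, with a median of -3.12 and a range from -4.37 to -1.24. So did 49 of 50 genes of G1/S and DNA replication (median -2.03) and 27 of 30 genes of homologous recombination and Fanconi repair (median -2.13), against 6.09% of all tested genes lower. The lists share genes, and 136 of their 140 distinct genes fell. Of the 50 largest falls among the changed genes, 27 were in these lists. With 1 library left out, 58, 58, 58 and 59 of the G2/M genes, 41, 45, 42 and 50 of the G1/S genes and 22, 24, 21 and 25 of the repair genes fell. In bulk RNA, fewer cells in a phase and less RNA per cell cannot be told apart.

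MKI67, which encodes the Ki-67 protein of dividing cells, stood at 28.6 and 28.5 CPM in control shRNA and 381 and 238 CPM in control. The control mean was 10.8 times the control shRNA mean (log2 fold change -3.44, SE 0.26, adjusted p = 0.000733). PLK1, a kinase needed for mitotic entry and spindle poles, was at 6.64 and 9.55 CPM against 139.8 and 99.6 CPM (-3.89, SE 0.26, adjusted p = 0.000733). For both genes the groups did not overlap, control shRNA being the low one, and control P17 was above control P4. CCNB1, the cyclin of mitotic entry, was at 22.9 and 30.3 CPM against 226 and 159.6 CPM, so that the control mean was 7.25 times the control shRNA mean. For AURKB, the kinase of the chromosomal passenger complex, the values were 3.63 and 4.1 CPM against 60.2 and 46.2 CPM, a log2 fold change of -3.78. For AURKA, the spindle pole kinase, they were 16 and 19.3 CPM against 146 and 114 CPM, a log2 fold change of -2.88. Both Aurora kinases passed at an adjusted p of 0.000733.

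The 10 largest falls were taken from changed genes with a reference protein, a mean of at least 5 CPM and groups that did not overlap. They were again of this kind. The lack of overlap was a condition of entry and is not a result. E2F8, a repressor that E2F itself induces, read 0.615 and 0.718 CPM in control shRNA and 16.7 and 11.4 CPM in control, and its control mean was 21.1 times as high. KIF20A, a kinesin of the central spindle, read 3.41 and 2.9 CPM against 86.1 and 44.9 CPM (20.7 times as high). GTSE1, a microtubule regulator of G2 and mitosis, read 2.52 and 2.66 CPM against 55.1 and 32.7 CPM. DLGAP5, a spindle assembly factor, and NCAPG, a condensin subunit, fell by 3.82 and 3.60 on the log2 scale. ANLN, the scaffold of the cytokinetic ring, fell from 272 and 149.8 CPM to 17.6 and 15.8 CPM. The helicase gene PIF1 and ERCC6L, a DNA translocase of anaphase bridges, completed the 10 largest falls at -3.66 and -3.62. All 10 kept their call without each of the 4 libraries, with adjusted p of 0.0223 or less. So did the 4 G2/M genes with the smallest p, which were HMMR (-3.54), AURKA, SPAG5 (-3.12) and BUB1B (-3.16).

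Among the genes of S phase, RRM2, the inducible subunit of ribonucleotide reductase, stood at 16.5 and 18.7 CPM in control shRNA and 208 and 177 CPM in control (-3.45, SE 0.20, adjusted p = 0.000733). The helicase subunit MCM5 read 25 and 22.8 CPM against 145 and 126 CPM (-2.50). CDC45, its partner in the active helicase, read 3.6 and 3.89 CPM against 30.7 and 26.2 CPM (-2.92). Smaller falls within the list were those of PCNA, the polymerase clamp (168 and 176 against 396 and 306 CPM, -1.03), and SLBP, the histone mRNA binding protein (37.3 and 33 against 70.4 and 60.4 CPM, -0.89). RPA2, a subunit of the single-strand binding protein, missed the threshold at -0.74 (adjusted p = 0.0556). Of the repair genes, EXO1 (-3.07), a resection nuclease, and FANCD2 (-2.53), FANCA (-2.38) and FANCI (-2.14) of crosslink repair had the smallest p (adjusted p = 0.000733 for each). PALB2 (-0.28), FANCL (-0.54) and FANCE (-0.87) were the 3 repair genes that did not pass.

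Regulators of these programs were split. Of 16 DREAM and RB regulators, 6 fell and 1 rose, against 6.09% and 3.06% of all tested genes. The median was -0.36. Besides E2F8, the falls included E2F7, its close relative (2.71 and 5.42 against 23.7 and 18.1 CPM, -2.36), RBL1, which encodes p107 (-1.54), and LIN9, a MuvB subunit (-1.63). E2F7 lost its call without control P17 (adjusted p = 0.0781). TFDP2, an E2F partner, was the regulator that rose (0.58, adjusted p = 0.0441), and it lost its call without any 1 of the 4 libraries. RBL2, which encodes the resting-cell pocket protein p130, read 82.8 and 74.8 CPM against 82 and 72.5 CPM and did not pass. Of 13 G1 cyclins, CDKs and CDK inhibitors, CDK2 alone fell (20.3 and 19.8 against 73 and 56.8 CPM, -1.69, adjusted p = 0.0021). That count (7.69%) is close to the 6.09% of all tested genes lower. CCND1, the main D-type cyclin of epithelial cells, read 456 and 557 CPM against 367 and 456 CPM (adjusted p = 0.276), and control shRNA P15 lay level with control P4. CDKN1A, the CDK inhibitor p21, read 308 and 440.3 CPM against 169 and 268 CPM (0.78, adjusted p = 0.0984).

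**Figure D2:**
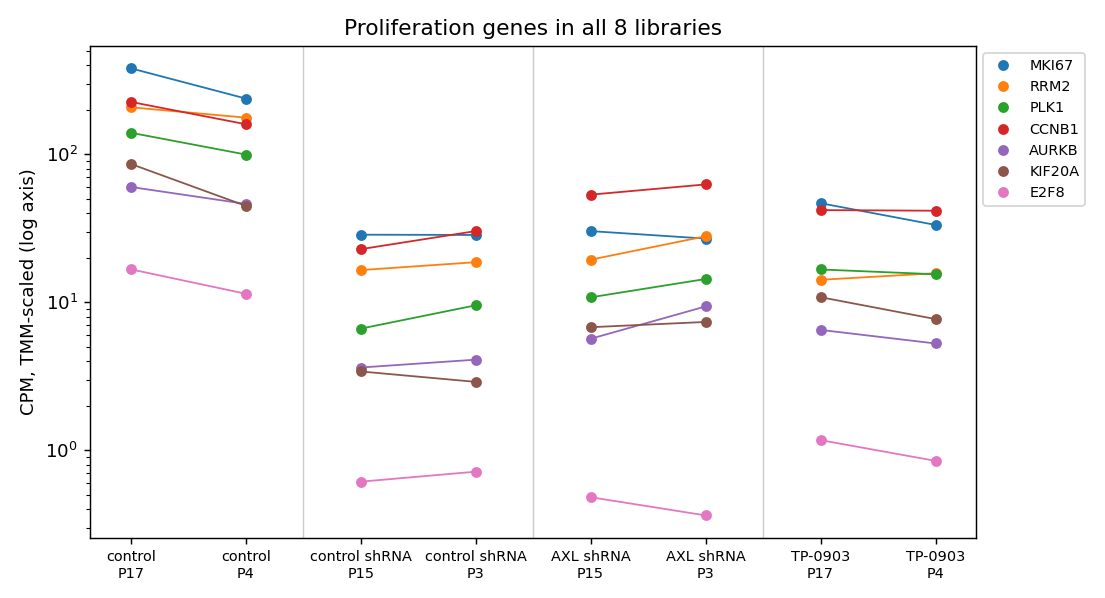
CPM on a log axis (y) of 7 proliferation genes in the 8 libraries (x), with lines joining the libraries of a group. The control libraries stand above the other 6 for every gene drawn, and MKI67 lies between 26.9 and 46.7 CPM in those 6 against 238 and 381 CPM in control.

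The control shRNA cultures were not alone at the low level. Against the mean of both control libraries, the median of the G2/M genes was -3.13 and -2.91 in control shRNA, -2.83 and -2.52 in AXL shRNA and -2.54 and -2.77 in TP-0903. The G1/S genes gave -1.95 and -2.07, -1.70 and -1.49, and -2.17 and -2.24 in the same order. These values share the control libraries as their reference, so they are not independent of each other. Both hairpin groups stood at a low level of proliferation genes, and the reference of TP-0903 at a high level. MKI67 read 30.3 and 26.9 CPM in AXL shRNA beside 28.6 and 28.5 CPM in control shRNA.

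**Figure D3:**
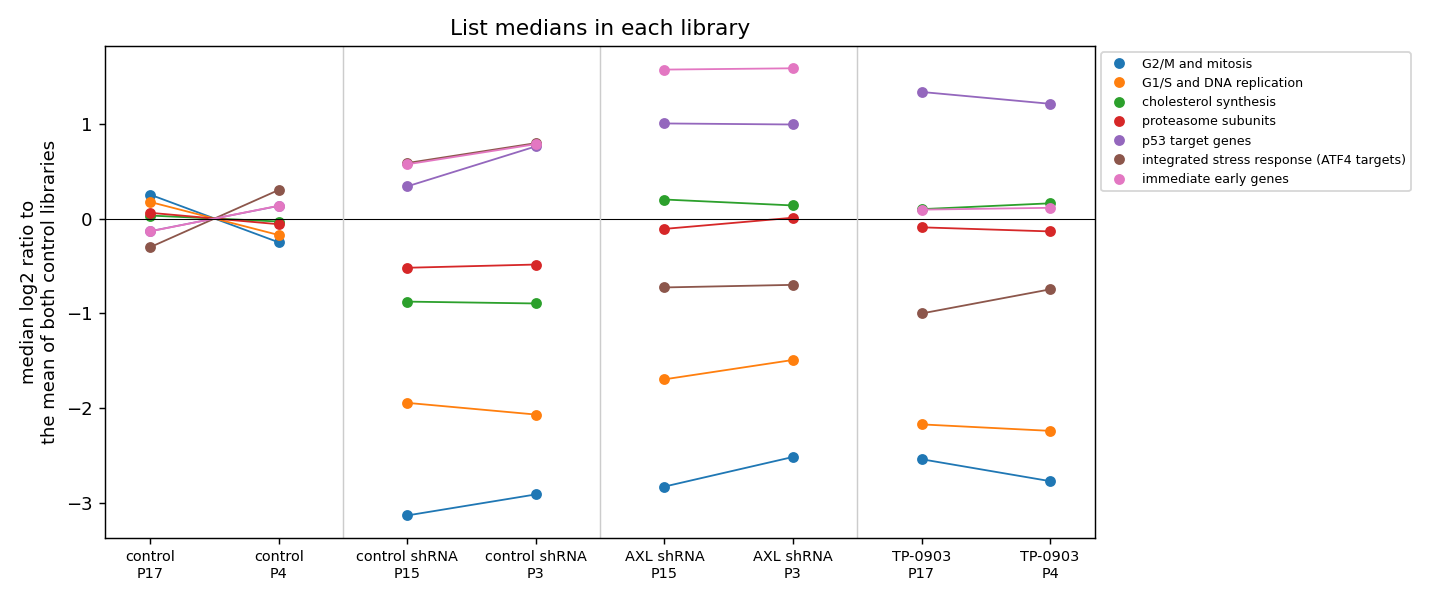
Median log2 ratio of each list's members to the mean of both control libraries (y axis) in the 8 libraries (x axis), with lines joining the libraries of a group. The cell cycle lists are low in the 6 libraries other than control, while the cholesterol and proteasome lists are lowest in control shRNA and the stress response list is positive there and negative in AXL shRNA and TP-0903.

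Promoters of 5 genes that fell are shown to place known elements of mitotic and replication genes beside the values. They were picked from the largest falls with 1 promoter window because that window held the element. Its presence in these 5 was therefore set by the choice and is not a result. Each is the run of 250 bases before the start site, 5′ to 3′ on the gene's own strand, from RefSeq on GRCh38.p14. Capitals mark the CHR, the cell cycle homology element TTTGAA, and CCAAT boxes for the mitotic genes, and the E2F site GGCGGGAA for the replication gene, on either strand (TTTGAA then appears as TTCAAA). No elements marked here share letters.
GTSE1 (chr22:46296620-46296869, plus strand): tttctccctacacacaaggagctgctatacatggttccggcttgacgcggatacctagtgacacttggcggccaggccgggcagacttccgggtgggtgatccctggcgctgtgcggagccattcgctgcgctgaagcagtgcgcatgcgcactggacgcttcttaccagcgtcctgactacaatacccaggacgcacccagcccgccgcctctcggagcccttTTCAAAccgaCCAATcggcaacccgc
PLK1 (chr16:23678639-23678888, plus strand): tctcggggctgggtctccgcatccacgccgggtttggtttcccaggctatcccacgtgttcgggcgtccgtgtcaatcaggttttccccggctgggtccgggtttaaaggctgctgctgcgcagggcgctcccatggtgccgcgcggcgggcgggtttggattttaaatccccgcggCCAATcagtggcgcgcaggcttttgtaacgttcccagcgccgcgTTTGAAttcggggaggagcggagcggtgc
DLGAP5 (chr14:55191586-55191835, minus strand): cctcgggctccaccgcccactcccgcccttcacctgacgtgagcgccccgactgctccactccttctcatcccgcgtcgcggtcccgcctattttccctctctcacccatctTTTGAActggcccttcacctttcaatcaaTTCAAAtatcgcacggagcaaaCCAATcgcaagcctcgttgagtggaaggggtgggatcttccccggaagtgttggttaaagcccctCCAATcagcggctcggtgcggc
ANLN (chr7:36389612-36389861, plus strand): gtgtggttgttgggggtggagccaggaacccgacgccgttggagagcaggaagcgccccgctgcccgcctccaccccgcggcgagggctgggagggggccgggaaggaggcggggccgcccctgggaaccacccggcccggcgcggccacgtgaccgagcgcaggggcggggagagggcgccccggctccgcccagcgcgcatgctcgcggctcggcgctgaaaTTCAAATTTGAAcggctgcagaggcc
GINS2 (chr16:85688955-85689204, minus strand): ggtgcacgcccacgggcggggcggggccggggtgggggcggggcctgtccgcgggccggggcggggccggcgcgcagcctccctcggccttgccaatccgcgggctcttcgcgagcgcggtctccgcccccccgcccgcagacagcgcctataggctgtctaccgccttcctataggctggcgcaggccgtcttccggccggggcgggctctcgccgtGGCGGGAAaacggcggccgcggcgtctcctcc
The first 4 are mitotic genes, picked for the CHR, and hold 1 or 2 each. GINS2, a subunit of the replicative helicase, was picked for the E2F site and holds 1. GINS2 read 6.67 and 8.44 CPM in control shRNA and 49.6 and 41.7 CPM in control (-2.59, adjusted p = 0.00168).

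Windows of 300 bases, 250 before the start and 50 after, were found for 51 of the 60 G2/M genes and 42 of the 50 G1/S genes. TTTGAA was in 38 of 51 G2/M promoters (74.5%) and in 2 of 42 G1/S promoters (4.76%), against 13.9% of the promoters of 12269 tested genes. CCAAT was in 74.5% of the G2/M and 54.8% of the G1/S promoters, against 42.4% of all. GGCGGGAA was in 14 of 42 G1/S promoters (33.3%) and in 5.88% of the G2/M promoters, against 6.07% of all. The matches are a description of letters in these windows, and a gene without a match may hold the element in another form or place.

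Sterol synthesis genes also held many falls. Of 27 cholesterol genes, 17 fell and none rose, against 6.09% of all tested genes lower. The median was -0.88, and 24 were lower in both control shRNA libraries (28.4% of all genes were). ACAT2, which makes the acetoacetyl-CoA that starts the pathway, read 13.6 and 8.98 CPM in control shRNA and 57.6 and 48 CPM in control (-2.23, SE 0.21, adjusted p = 0.00138). EBP (-1.55), MVK (-1.54) and DHCR7 (-1.06), enzymes of early and late steps, fell too. These 4 genes kept their call without each of the 4 libraries. HMGCS1, the HMG-CoA synthase, fell from 107 and 126 CPM to 58.4 and 65.3 CPM (-0.92, adjusted p = 0.0334) but lost its call without any 1 of the 4 libraries (adjusted p = 0.155, 0.10, 0.123 and 0.118 in the order above). INSIG1, the sterol-dependent anchor of SREBP, fell by 2.12 on the log2 scale (19.8 and 7.54 against 77.5 and 41.2 CPM). The gene of the factor itself, SREBF2, read 133 and 105 CPM against 136 and 144 CPM and did not pass (adjusted p = 0.416). With 1 library left out, 11, 9, 7 and 15 cholesterol genes fell.

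Of 17 fatty acid synthesis genes, 7 fell and 1 rose (median -0.33), against 6.09% and 3.06% of all tested genes. FASN, the fatty acid synthase, read 177 and 184 CPM against 512 and 432 CPM (-1.39, SE 0.15, adjusted p = 0.00264), and the groups lay far apart. The desaturases FADS2 (311 and 194 against 779 and 715 CPM, -1.56) and SCD (924 and 638 against 2183 and 2450.00 CPM, -1.57) and the elongase ELOVL6 (-0.77) fell as well. FASN kept its call without each library. SCD lost it without any of the 4 (adjusted p = 0.0778, 0.123, 0.128 and 0.0848), FADS2 without control P17 (0.0666) and ELOVL6 without control shRNA P15 (0.0909) or control P17 (0.117). ACSL1, an acyl-CoA synthetase, rose (0.47, adjusted p = 0.0482), but it lost its call without any 1 of the 4 libraries. Leaving out 1 library in turn gave 2, 3, 1 and 3 of the fatty acid genes that fell. Across the 4 groups the cholesterol list was lowest in control shRNA: its median against the control mean was -0.88 and -0.90 there, 0.20 and 0.14 in AXL shRNA and 0.10 and 0.16 in TP-0903, with no test of these differences.

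**Figure D4:**
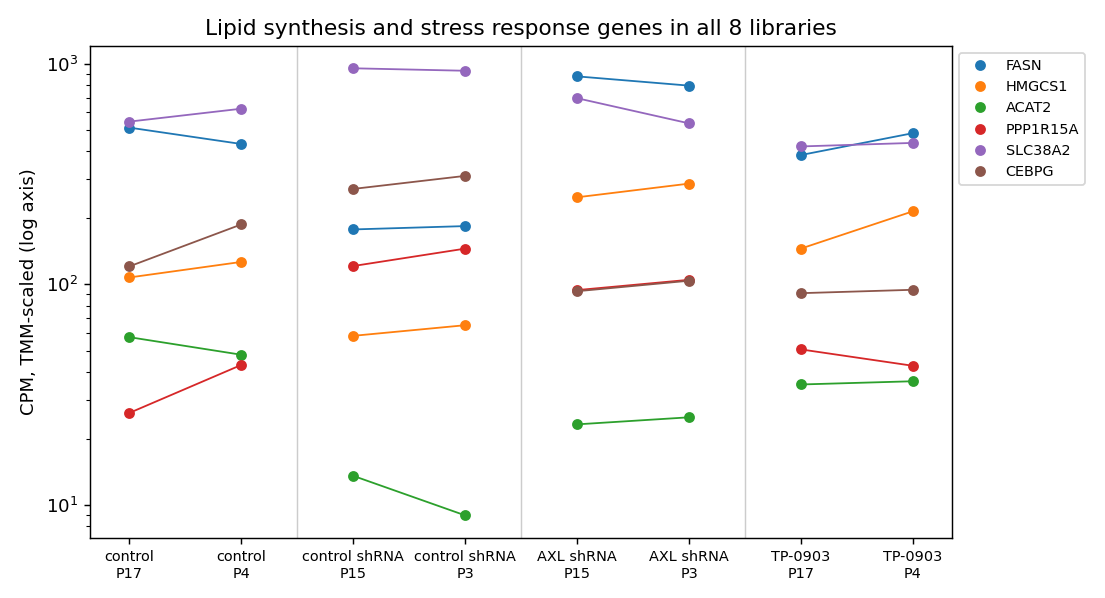
CPM on a log axis (y) of 3 lipid synthesis genes (FASN, HMGCS1, ACAT2) and 3 stress response genes (PPP1R15A, SLC38A2, CEBPG) in the 8 libraries (x), with lines joining the libraries of a group. The lipid genes are lowest in the 2 control shRNA libraries, and the 3 stress genes are highest there.

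The integrated stress response list held rises and no falls. Of 36 ATF4 targets, 6 rose and none fell, against 3.06% of all tested genes higher. The list median was 0.68, and 25 members were higher in both control shRNA libraries (28.7% of all genes were). PPP1R15A, the phosphatase subunit GADD34 that ends the response, read 121 and 145 CPM in control shRNA and 26.2 and 43.1 CPM in control (1.94, SE 0.24, adjusted p = 0.00417), and it kept its call without each library. The transporters SLC6A9 of glycine (43.5 and 40.8 against 24.9 and 25.3 CPM, 0.75) and SLC38A2 of neutral amino acids (951 and 927 against 546 and 624 CPM, 0.68) rose. So did CEBPG, the partner of ATF4 (270.4 and 309.8 against 121 and 187 CPM, 0.92, adjusted p = 0.0352). Without control P17 these 3 genes had adjusted p of 0.132, 0.254 and 0.148, and without control shRNA P15 of 0.0868, 0.134 and 0.0965. Without control shRNA P3 they had 0.0576, 0.109 and 0.128, and without control P4 0.0616, 0.0768 and 0.00972. With 1 library left out, 1, 1, 2 and 11 members rose.

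Control P17 was the lowest of the 4 libraries for 31 of these 36 genes, against 29.8% of all tested genes. DDIT3, the stress factor CHOP, read 41.1 and 44.5 CPM in control shRNA but 7.66 CPM in control P17 and 26.9 CPM in control P4, and it did not pass (1.31, SE 0.50, adjusted p = 0.145). Without control P4 it passed (adjusted p = 0.0082). ATF4 itself read 311 and 355 CPM against 209 and 284 CPM (0.43, adjusted p = 0.14). CHAC1, a glutathione-degrading enzyme under CHOP, read 30.6 and 29.8 CPM against 4.52 and 31 CPM, so the groups overlapped. The median of the list was 0.80 for P15 over P17 and 0.42 for P3 over P4. Against the control mean it was 0.59 and 0.80 in control shRNA and -0.30 and 0.30 in the control libraries themselves, and between -1.0 and -0.70 in AXL shRNA and TP-0903.

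The tRNA synthetases, many of which are also ATF4 targets, did not follow. None of 20 rose and 3 fell, against 3.06% of all tested genes higher and 6.09% lower. The list median was 0.11, with 12 members above 0 and 8 below. The falls were VARS (-0.50), RARS (-0.51) and FARSA (-0.41), the enzymes that charge valine, arginine and phenylalanine tRNAs. None of these 3 calls held without any 1 of the 4 libraries (adjusted p from 0.0705 to 0.263). Of 29 ER chaperone and unfolded protein response genes, 3 rose and 1 fell, against 3.06% and 6.09% of all tested genes. DNAJB9, a chaperone of the IRE1 branch, rose from 19.5 and 21.4 CPM to 45.5 and 46.4 CPM (1.17, SE 0.12, adjusted p = 0.00185) and kept its call without each library. SEL1L (0.83) and HERPUD1 (0.65), both of ER-associated degradation, rose too, while CALR, the lectin chaperone calreticulin, fell (-0.53). The CALR call was lost without any 1 of the 4 libraries. SEL1L lost its call without control P17 (adjusted p = 0.0892), and HERPUD1 without control P17 (0.169), control shRNA P15 (0.107) or control shRNA P3 (0.0717). Leaving out 1 library in turn gave 2, 2, 1 and 6 genes of this list that rose. HSPA5, the main ER chaperone BiP, read 789 and 1056 CPM against 720.3 and 690.00 CPM (adjusted p = 0.161).

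Of 27 targets of p53, 6 rose and none fell (median 0.58), against 3.06% of all tested genes higher. Both control shRNA libraries were higher for 17 targets (28.7% of all genes). Control P17 was the lowest of the 4 libraries for 21 of the 27, against 29.8% of all tested genes. ZMAT3, an RNA binding protein, read 92.1 and 83.7 CPM against 29.1 and 34.8 CPM (1.46, SE 0.17, adjusted p = 0.00292) and kept its call without each library. SPATA18, a mitochondrial quality factor, rose from 12.2 and 14.5 CPM to 37.5 and 32.8 CPM (1.40), and the death receptor genes FAS (0.92) and TNFRSF10C (1.01) rose by less. FAS lost its call without any of the 4 libraries (adjusted p = 0.0815, 0.132, 0.231 and 0.0855), TNFRSF10C without all but control P4 (0.125, 0.121 and 0.215), and SPATA18 without control shRNA P15 (0.0621) or control P17 (0.103). MDM2, the p53 ligase, read 173 and 257 CPM against 124 and 149.7 CPM (adjusted p = 0.0869). The targets that rose numbered 2, 2, 1 and 5 with 1 library left out. The list's median against the control mean was 0.34 and 0.76 in control shRNA, below the 1.0 and 0.99 of AXL shRNA and the 1.34 and 1.21 of TP-0903.

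Growth factors and stress switch on the immediate early genes within minutes. Of 25 tested, 7 rose and none fell (median 0.69), against 3.06% of all tested genes higher. For 16 of the 25, control P17 was the lowest of the 4 libraries, against 29.8% of all tested genes. CTGF, a matricellular factor and YAP target, read 175 and 114 CPM in control shRNA and 41.1 and 47.5 CPM in control (1.70, SE 0.28, adjusted p = 0.0127). The zinc finger factors KLF4 (28.6 and 21.8 against 6.9 and 9.67 CPM, 1.60) and KLF6 (126 and 154 against 66.4 and 58.1 CPM, 1.17) rose, as did BTG1, an antiproliferative adaptor of mRNA decay (209 and 177 against 79.96 and 101 CPM, 1.09). FOS (5.54 and 10.1 against 1.3 and 2.63 CPM, 1.99) and JUN (99.6 and 146 against 49.9 and 53.8 CPM, 1.24), the subunits of AP-1, also rose, while EGR1 stayed at or under 2.95 CPM in all 4 libraries. BTG1 kept its call without each library. Without control P17 the adjusted p was 0.0628 for KLF6, 0.124 for CTGF and 0.117 for KLF4. Without control shRNA P15 it was 0.0622 for CTGF and 0.0756 for KLF4, and KLF6 also missed the threshold without control shRNA P3 (0.0503) or control P4 (0.0521). Leaving out 1 library in turn gave 3, 3, 2 and 7 members that rose.

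Of 18 feedback genes of the ERK pathway, 5 rose and none fell (median 0.50), against 3.06% of all tested genes higher. For 13 of the 18, control P17 was the lowest of the 4 libraries, against 29.8% of all tested genes. DUSP4, a nuclear ERK phosphatase, rose from 221 and 261 CPM to 529 and 585 CPM (1.21, SE 0.14, adjusted p = 0.00375) and kept its call without each library. SPRY2 (32.9 and 25.5 against 13.2 and 9.57 CPM, 1.36) and SPRY1 (1.38), inhibitors of receptor kinase signalling, and DUSP6, the cytoplasmic ERK phosphatase (18.8 and 29.8 against 7.22 and 12.6 CPM, 1.30), rose too. SPRY2 lost its call without control shRNA P15 (adjusted p = 0.0569). DUSP6 lost it without control shRNA P15 (0.0605), control shRNA P3 (0.165) or control P17 (0.239), and SPRY1 without any of the 4 (0.141, 0.0898, 0.239 and 0.0726). With 1 library left out, 1, 2, 2 and 3 members rose. The ETS factors ETV4 and ETV5, targets of the same pathway, did not pass (adjusted p = 0.735 and 0.525).

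Of 31 proteasome subunits, 16 fell, against 6.09% of all tested genes. Both control shRNA libraries were lower for 30 subunits (28.4% of all genes), and the median was -0.49. PSMA2, a subunit of the outer ring, read 82.1 and 81.6 CPM against 144 and 134 CPM (-0.77, SE 0.10, adjusted p = 0.00566). The ATPase subunits PSMC1 (-0.74) and PSMC3 (-0.85) and the ring subunit PSMA5 (-0.70) fell similarly. None of these 4 kept its call without control P17 (adjusted p from 0.0529 to 0.0988), PSMC1, PSMC3 and PSMA5 lost it without control shRNA P15 (0.0653, 0.0631 and 0.0803), and PSMC1 without control shRNA P3 (0.052). Leaving out 1 library in turn gave 1, 6, 0 and 9 subunits that fell. Of 29 heat shock and cytosolic chaperone genes, 9 fell and none rose (median -0.59), again against 6.09% of all genes lower. Among them were 3 subunits of the TRiC chaperonin that folds actin and tubulin, CCT5 (258 and 291 against 541 and 468 CPM, -0.88), CCT2 (-0.83) and TCP1 (-0.74), and BAG3, a co-chaperone (-0.78). All 4 lost their call without control shRNA P15 (adjusted p from 0.057 to 0.132) or control P17 (0.0652 to 0.193), and all but CCT5 without control shRNA P3 (up to 0.119), but none without control P4. With 1 library left out, 0, 1, 0 and 14 of the list fell.

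Of 34 glycolysis and hypoxia genes, 6 fell and 1 rose (median -0.14), against 6.09% and 3.06% of all genes. ENO1, the enolase, read 1027 and 1148 CPM against 2478 and 2173 CPM (-1.10, SE 0.14, adjusted p = 0.00496), and LDHA, which makes lactate, read 1118 and 971 CPM against 2219 and 1911 CPM (-0.98). ALDOA (-0.78) and TPI1 (-0.80), enzymes in the middle of the pathway, fell as well, and VEGFA, the hypoxia-induced angiogenic factor, was the gene that rose (98.9 and 91.2 against 39.6 and 60.8 CPM, 0.92). ENO1 kept its call without each library. Without control P17 the adjusted p was 0.0585 for LDHA, 0.0687 for ALDOA and 0.0815 for TPI1. Without control shRNA P15 it was 0.0575 for ALDOA and 0.0631 for TPI1, and LDHA stood at 0.0502 without control shRNA P3. Leaving out 1 library in turn gave 2, 4, 1 and 5 members that fell. ENO1, LDHA, TPI1, ALDOA and ACTG1 have processed pseudogenes of near-identical sequence, among which the read assignment could split counts. GAPDH read 3072 and 3921 CPM against 4106 and 4678 CPM (adjusted p = 0.252).

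Of 32 targets of NRF2, which mutant KEAP1 leaves active in A549 cells, 3 fell and 1 rose, with a median of -0.09. These counts are close to the shares over all tested genes (6.09% lower and 3.06% higher). The falls were AKR1B1, an aldose reductase (-0.81), PRDX1, a peroxiredoxin (-0.69), and TKT, the transketolase (-0.66), none of which kept its call without any 1 of the 4 libraries (adjusted p from 0.0611 to 0.192). ABCC3, a conjugate exporter, rose from 432 and 556 CPM to 1216 and 1089 CPM (1.22, adjusted p = 0.018). NQO1, the standard target, read 1421 and 1415 CPM against 1669 and 1973 CPM (adjusted p = 0.18).

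Of 49 nuclear genes of the respiratory complexes, 8 fell and none rose (median -0.17), against 6.09% of all tested genes lower. None of the 8 calls held without control shRNA P15, without control P17 or without control P4. UQCRH of complex III (-0.51) and the ATP synthase genes ATP5C1 (-0.51), ATP5G1 (-0.62) and ATP5H (-0.51) had the smallest p. Their calls were lost without control shRNA P15 (adjusted p from 0.0662 to 0.13), control P17 (0.153 to 0.228) or control P4 (0.066 to 0.087), and ATP5G1 alone kept its call without control shRNA P3. Of 15 mitochondrially encoded transcripts, MT-CYB alone rose (2199 and 2799 against 1646 and 1427 CPM, 0.70, adjusted p = 0.0461), against 3.06% of all tested genes higher. MT-CYB lost its call without control shRNA P3, control P17 or control P4. The share of counts from the mitochondrial genome was 3.94% and 5.17% in control shRNA against 3.69% and 3.58% in control. Of 33 ribosome biogenesis genes, 5 fell and none rose, against 6.09% of all tested genes lower. Among them were the small nucleolar RNA proteins NOP56 (149 and 184 against 323 and 295 CPM, -0.89) and FBL (-0.69) and the cap-binding factor EIF4E (-0.65). The list's median log2 ratio was -0.48 for P15 over P17 but -0.08 for P3 over P4. Of the 33 genes, 29 were lowest in control shRNA P15, as were 25.7% of all tested genes. NOP56 lost its call without control P17 (adjusted p = 0.0777), as did EIF4E (0.167) and FBL (0.218). EIF4E and FBL also lost it without control shRNA P15 (0.106 and 0.136), EIF4E without control shRNA P3 (0.111) and FBL without control P4 (0.0501). MYC read 97.2 and 148 CPM against 86.8 and 105 CPM (adjusted p = 0.286), and none of the 75 cytosolic ribosomal protein genes passed (median 0.15).

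The cytoskeleton and the matrix differed by gene. Of 29 contractile actomyosin genes, 6 fell and 1 rose (median -0.52), against 6.09% and 3.06% of all genes. TPM3, a tropomyosin, read 203 and 185 CPM against 425 and 354 CPM (-1.01, SE 0.14, adjusted p = 0.00731), and ACTG1, cytoplasmic actin, read 2354 and 2465 CPM against 4803 and 3623 CPM (-0.81). The actin crosslinker ACTN4 (-0.94) and the calponin CNN2 (-1.08) fell, whereas ACTA2, smooth muscle actin, rose (29.98 and 28 against 13.6 and 19.1 CPM, 0.82). All 4 falls lost their call without control P17 (adjusted p from 0.0556 to 0.224) or control shRNA P3 (0.0526 to 0.146), and all but TPM3 without control shRNA P15 (up to 0.136), but none without control P4. The members that fell numbered 1, 0, 0 and 5 with 1 library left out.

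Of 20 collagen chains, 6 rose (3.06% of all genes did) and none fell, with a median of 0.05 whose sign changed under some alternatives given at the end. COL27A1, a fibrillar collagen, read 52.1 and 50.5 CPM against 28.4 and 29.1 CPM (0.84, SE 0.10, adjusted p = 0.00417) and kept its call without each library. The basement membrane chains COL4A5 (124 and 127 against 61.8 and 68.4 CPM, 0.95) and COL4A6 (142 and 168 against 81.2 and 77 CPM, 0.97) and COL18A1 (0.84) rose. The paired chains COL4A1 (60.1 and 32.6 against 196 and 74.6 CPM) and COL4A2 (123 and 86.8 against 381 and 172 CPM) were lower in both control shRNA libraries and did not pass (adjusted p = 0.141 and 0.103). COL4A5, COL4A6 and COL18A1 each lost their call without control shRNA P15, control shRNA P3 or control P17 (adjusted p from 0.0501 to 0.184). COL4A6 and COL18A1 also lost it without control P4 (0.0758 and 0.066). Leaving out 1 library in turn gave 1, 1, 1 and 2 chains that rose.

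Of 28 epithelial junction and keratin genes, CGN, the tight junction protein cingulin, fell (-1.18, adjusted p = 0.047) and none rose. That count (3.57%) is under the 6.09% of all tested genes lower, and CGN lost its call without any 1 of the 4 libraries. KRT8, a keratin of simple epithelium, read 3095 and 2632 CPM against 3647 and 4649 CPM, and KRT18, its partner, 2269 and 1945 CPM against 2629 and 3439 CPM (adjusted p = 0.178 and 0.163). EPCAM, an epithelial adhesion protein, was low in all 4 libraries (12.2 and 8.8 against 7.22 and 7.66 CPM). VIM, the mesenchymal intermediate filament, read 428 and 429 CPM against 907 and 616 CPM (adjusted p = 0.0754), and none of 25 mesenchymal genes passed. Of the defining markers of other cells, CD3E and KDR were at 0 in these 4 libraries and PTPRC, DCN and COL1A2 at 0.0496 CPM or less, and none of the 9 tested markers of fibroblasts, leukocytes, erythroid cells and endothelium passed. The summed level was 18.1 to 19.7 CPM in control shRNA and 27.1 to 28.1 CPM in control for 4 tested fibroblast markers, and 18.7 to 28.5 CPM and 18.4 to 19.2 CPM for 3 tested leukocyte markers. SFTPC, SFTPB and NKX2-1, markers of alveolar cells, were at 0.0922 CPM or less in the 4 libraries, so these defining markers are close to absent. The wider list of lung secretory and alveolar genes was expressed in part. Of its 14 tested members, 2 rose and none fell, against 3.06% of all tested genes higher. Its median was 0.84, with 13 members above 0 and 1 below.

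Among the 10 largest rises, MUC5AC, the gel-forming airway mucin, read 162 and 91.2 CPM in control shRNA and 14.2 and 17.4 CPM in control (3.0, SE 0.55, adjusted p = 0.0211). SMOC1, a matricellular calcium-binding protein, read 285 and 198 CPM against 39.1 and 50.6 CPM (2.43), and FCGBP, a mucus protein, 91 and 87.6 CPM against 9.63 and 25 CPM (2.37). IGFBP1, an IGF carrier, read 18.4 and 16.1 CPM against 2.95 and 2.65 CPM (2.62), and FST, the activin binder follistatin, 11.6 and 8.59 CPM against 1.11 and 2.35 CPM (2.53). CHGB, a secretory granule protein (2.25), CEACAM1, a cell adhesion molecule (2.33), PARM1, a mucin-like membrane protein (2.25), and NKD1, a Wnt feedback inhibitor (2.05), rose. FAM129A, a stress-responsive regulator of translation, rose from 7.28 and 7.41 CPM to 29.3 and 73.8 CPM (2.81). Groups that do not overlap were a condition for entering these 10, so the lack of overlap is not a result. None of the 10 kept its call without control P17, where the log2 fold changes were 1.72 to 2.86. FAM129A alone kept it without control shRNA P15, and MUC5AC and SMOC1 without control shRNA P3. Without control P4, FST, FCGBP, CEACAM1, CHGB and PARM1 passed and the other 5 did not (up to 0.105).

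Of 28 secretory and senescence-associated factors, 3 rose and 1 fell (median 0.37), against 3.06% of all tested genes higher and 6.09% lower. LMNB1, the nuclear lamin B1, fell from 113 and 67.6 CPM to 14.1 and 13.1 CPM (-2.73, adjusted p = 0.00131) and is also a gene of cycling cells. CXCL8, the neutrophil chemokine interleukin-8, read 19.96 and 34.9 CPM against 7.47 and 8.28 CPM (1.80), and IGFBP3, an IGF carrier, 378 and 263 CPM against 133 and 120.2 CPM (1.34). GLB1, the lysosomal galactosidase, was the third to rise (159.8 and 123 against 88.7 and 89.5 CPM, 0.67). No one of these 3 kept its call without control P17 (adjusted p from 0.151 to 0.219) or control P4 (0.0687 to 0.11), IGFBP3 and GLB1 lost it without control shRNA P15 (0.109 and 0.145), and CXCL8 without control shRNA P3 (0.0682). IL6 stayed at 0.433 CPM or less in all 4 libraries. Of 31 lysosome and autophagy genes, 3 rose and 1 fell, against the same shares of all tested genes. The rises were GLB1, PSAP, a precursor of sphingolipid activators (2272 and 2177 against 1168 and 1429 CPM, 0.78), and MAP1LC3B of the autophagosome (0.49). NPC1, the lysosomal cholesterol exporter, fell (49.4 and 49.4 against 94.8 and 84.7 CPM, -0.86). PSAP kept its call without control P4 but not without control shRNA P15 (0.0903), control shRNA P3 (0.0667) or control P17 (0.162). MAP1LC3B lost its call without any of the 4 (from 0.0745 to 0.186).

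Other signalling lists held few calls, beside 3.06% of all tested genes higher and 6.09% lower. Of 42 interferon-stimulated genes, SAMD9L rose (4.71 and 4.34 against 1.92 and 2.38 CPM, 1.07) and OAS3, an oligoadenylate synthetase that senses double-stranded RNA, fell (35.9 and 36.8 against 99 and 94.1 CPM, -1.41, adjusted p = 0.000947). The SAMD9L call was lost without any 1 of the 4 libraries. ISG15 stayed at 3.27 CPM or less in the 4 libraries. Of 15 genes that process or load short RNAs, TNRC6A, a partner of Argonaute, fell (58.3 and 65.2 against 108 and 84.7 CPM, -0.64, adjusted p = 0.0312), and DICER1, DROSHA, XPO5 and AGO2 did not pass. TNRC6A lost its call without control shRNA P15, control shRNA P3 or control P17. Of 20 JAK and STAT genes, IL6ST, the shared receptor subunit gp130, rose (534 and 533 against 266 and 357 CPM, 0.78, adjusted p = 0.0272). No member of the TGF-beta and SMAD list (27 tested), the growth factor receptors (18) or the BCL2 family (17) passed. Differences of this size can be missed: in simulated data with 2 libraries a group, the edgeR test called 46.7% of falls and 42.9% of rises of 1 on the log2 scale. The simulation held few changed genes (45 such falls and 42 such rises among 17227 genes). Its rates may therefore differ from those of the real comparison.

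The falls of these lists were present in both matched pairs. For the G2/M genes the median log2 ratio was -3.33 for P15 over P17 and -2.69 for P3 over P4, for the cholesterol genes -0.87 and -0.90, and for the proteasome -0.55 and -0.41. For the complement, fibrinogen and acute phase list it was 2.40 and 0.77. A test of whether the hairpin difference differs between high and low P number, over all 8 libraries, found 213 genes (1.21%), of which 167 (0.945%) had the more positive difference at high P and 46 (0.26%) the more negative. It takes control shRNA and AXL shRNA together against control and TP-0903, so its values are not the difference of the 2 ratios of the control libraries alone.

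**Figure D5:**
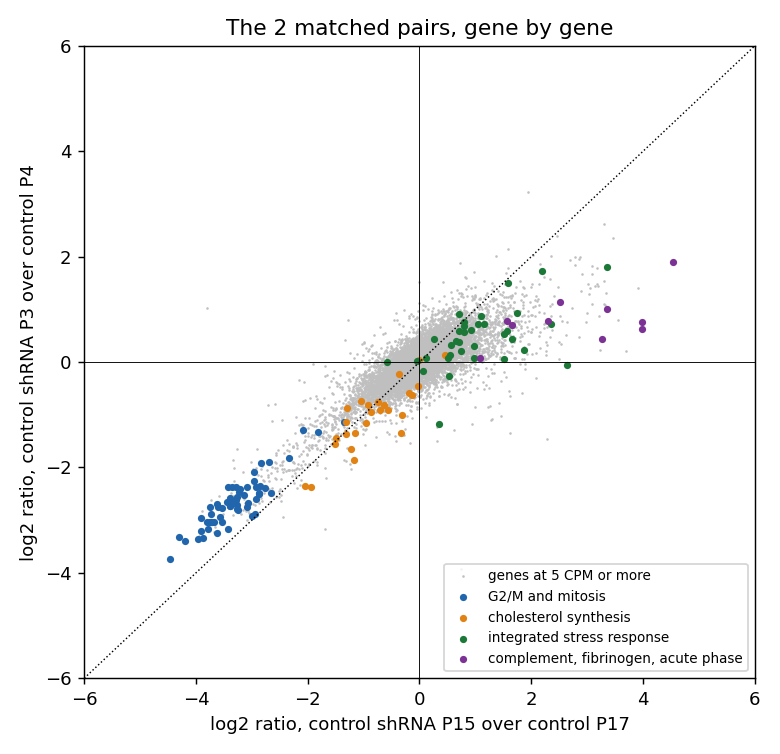
Log2 ratio of control shRNA P3 over control P4 (y axis) against control shRNA P15 over control P17 (x axis) for genes averaging 5 CPM or more in these 4 libraries (grey), with members of 4 lists coloured and the dotted line marking equal ratios. G2/M genes lie low in both pairs, most cholesterol genes lie low in both, and the complement and fibrinogen genes reach higher ratios in the high P pair than in the low P pair.

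The fibrinogen chains show the contrast. FGA read 383 and 245 CPM in control shRNA, 23.8 CPM in control P17 and 144 CPM in control P4, and FGG read 247 and 127 CPM, 15.2 CPM and 81.5 CPM. Control P17 was thus the lowest library for both, and the log2 ratios were 3.98 and 3.98 at high P against 0.76 and 0.64 at low P. Neither passed in the comparison of the groups (adjusted p = 0.242 and 0.267). Of 14 tested members of the list, 12 were higher in both control shRNA libraries (28.7% of all genes were) and none passed, with a median of 1.77 on the log2 scale. TM4SF4, a tetraspanin-like membrane protein, had ratios of opposite sign (1.46 and -1.02; 43.2 and 18.3 against 15.4 and 37.8 CPM), as did CDCP1, a surface substrate of SRC kinases (-1.29 and 0.80; 8.79 and 16 against 22.1 and 9 CPM).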

How the data were processed

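RNA of 8 A549 cultures was sequenced from Nextera XT libraries, per the labels' protocols, with no strand given, so reads of a gene and of an antisense partner cannot be told apart. Per the submitters' processing notes, reads were aligned to GRCh38 with STAR 2.5.3a and quantified with RSEM (version and gene models: not given in the sources used here). Deposited by the authors were RSEM expected counts and TPM for 58302 genes per library. These deposited expected counts were rounded for the tests. Genes passing filterByExpr (17676) were scaled by TMM and tested with edgeR 4.0.16 (R 4.3.3) quasi-likelihood fits over all 8 libraries, with 1 term per group and Benjamini-Hochberg adjustment. A second fit tested whether the hairpin difference differed between high and low P number. Log2 fold changes are fitted values, and SE is the log2 fold change divided by the root of F. Deposited TPM served as an alternative with a pseudocount of 1, tested with limma 3.58.1. DESeq2 1.42.0, other scalings, filters and designs were further alternatives. Gene positions were taken from GENCODE 29, which held 58039 of the IDs.

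The comparison and the 44 gene lists were chosen with earlier results of these data known. Named genes follow a rule: 14 set genes (AXL, MKI67, CCNB1, CCND1, CDKN1A, MYC, ATF4, DDIT3, HMGCS1, KRT8, KRT18, EPCAM and others not reported here), the 10 largest rises and 10 largest falls at a mean of at least 5 CPM with groups that do not overlap, up to 4 members with the smallest p of each list with 3 or more calls, and the 5 smallest p in each direction of the P level test. Other genes were named after their values were seen. The fits were tested on simulated counts for 17227 genes. There, 80.6% of falls and 90.2% of rises of 2 on the log2 scale were called and 2.17% of calls were false. Few genes were changed in the simulation, so these rates may differ in the real comparison. Libraries held 30067011 to 44217023 expected counts.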

Additional observations from a re-analysis of the deposited data

Results flagged for a closer look

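The test of whether the hairpin difference differs between high and low P number gave these genes, as log2 differences at high P minus low P over all 8 libraries, both hairpin groups against both groups without a hairpin (edgeR quasi-likelihood test, Benjamini-Hochberg adjusted p). The receptor AXL stood at -1.41 (adjusted p = 0.0177). Among the largest rises, MUC5AC stood at 1.71 (0.0376), FCGBP at 1.81 (0.0336) and PARM1 at 1.74 (0.0336). The fibrinogen chains FGA and FGG stood at 3.27 (0.000232) and 3.74 (0.000361). The membrane proteins TM4SF4 and TM4SF20 stood at 2.61 (0.000417) and 2.71 (0.000918), and RARRES1 at 2.15 (0.000965).

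The opposite direction was found for the potassium channel gene KCNMA1 at -2.0 (0.000965), the filamin partner RFLNB at -2.07 (0.00458), the smooth muscle gene SMTN at -1.38 (0.01), the chromatin protein HMGA2 at -1.81 (0.0109) and CDCP1 at -3.0 (0.012). KCNMA1 read 10.4 and 24.3 CPM in control shRNA and 40.4 and 24.9 CPM in control, and HMGA2 read 6.09 and 16.9 CPM against 18.4 and 19.2 CPM. With 2 libraries at each P level of each kind, the spread behind these values rests on few libraries.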

How the results depend on the processing

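Of 124 named genes, 105 passed the threshold and 39 of these did so without each of the 4 libraries. For genes changed between control shRNA and control, the number was 1618 in the design described, 3352 with no count filter, 2968 with the P number as a replicate block of 2 levels, 743 with the 4 control libraries alone, 374 in a test against a fold of 1.5, 2746 by DESeq2, and 343 to 1010 with 1 library left out. In the test of hairpin by P level, which sets both hairpin groups against both groups without a hairpin, 213 genes became 1113 with no count filter. Leaving out a library leaves 1 sample in an arm, which is then assumed to vary like the other groups. The replicate block is not an established pairing, because control shRNA and control share no P number and only 2 pairs exist (correlation of deviations 0.368).

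The p53 target genes called higher were 6, and 15 with no count filter, 11 with the replicate block, 3 with the 4 control libraries alone, 1 against a fold of 1.5, 12 by DESeq2 and 1 to 5 with 1 library left out. The integrated stress response (ATF4 targets) went from 6 to 24, 18 and 14 with no count filter, the replicate block and DESeq2, to 1 against a fold of 1.5, and to 1 to 11 with 1 library left out. For cholesterol synthesis 17 became 5 against a fold of 1.5 and 7 to 15 with 1 library left out. For proteasome subunits 16 became 4 with the 4 control libraries alone, 0 against a fold of 1.5 and 0 to 9 with 1 library left out. For immediate early genes 7 became 14 with no count filter, 1 against a fold of 1.5 and 2 to 7 with 1 library left out. G1/S genes called lower stayed at 41 to 50 and G2/M genes at 58 to 59 with 1 library left out.

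Medians on the log2 scale changed sign for some lists. For collagen chains the median was -0.26 with no count filter, -0.0035 with the replicate block, -0.0283 by limma-voom and -0.39 to 0.0536 with 1 library left out. With 1 library left out the medians ranged from -0.0071 to 0.26 for cytosolic aminoacyl-tRNA synthetases, -0.34 to 0.18 for NRF2 targets and -0.16 to 0.13 for NF-kB and inflammatory cytokines. The log2 fold change then ranged from -0.94 to 0.10 for AXL, -0.53 to 1.0 for TM4SF4 and -0.83 to 0.46 for CDCP1. The cause was not tested.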

Other observations

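The genes below lie outside the lists and were chosen after their values were seen (edgeR quasi-likelihood test, adjusted p). The first 4 and SNHG1 are host genes of small nucleolar RNAs, for which no list was tested as a group. C6orf48 read 169 and 203 CPM in control shRNA against 32.7 and 49.6 CPM in control (log2 fold change 2.18, adjusted p = 0.00205). ZFAS1, annotated as an antisense gene, read 284 and 377 CPM against 69.4 and 92.2 CPM (2.03, adjusted p = 0.0026). GAS5 read 217 and 282 CPM against 75.1 and 100.4 CPM (1.51, adjusted p = 0.00966), and SNHG8 read 59.7 and 77.1 CPM against 16.3 and 28.4 CPM (1.62, adjusted p = 0.0153). For all 4 both control shRNA libraries were above both control libraries. SNHG1 did not pass (0.17, adjusted p = 0.643). MAT2A, which makes S-adenosylmethionine, read 1121 and 2026 CPM against 376 and 459 CPM (1.91, adjusted p = 0.00958), and CCPG1, a receptor for autophagy of the ER, read 568 and 475 CPM against 129 and 223 CPM (1.57, adjusted p = 0.0155).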
